A study of Homo sapiens with 8 samples.

Results

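A set of 43 genes of the G1/S transition and DNA replication was examined across 8 expression arrays of lung adenocarcinoma cells. The members were chosen by function: origin licensing and firing factors, the MCM helicase, the sliding clamp and its loader, replicative polymerases, nucleotide supply, Okazaki fragment maturation, chromatin and histone supply, and regulators of S phase entry. Probe sets were matched to members through the platform's probe table wherever a probe set carried 1 symbol, and each gene was represented by the probe set with its highest mean signal over the 8 arrays. All 43 members were found among 18132 genes measured in this way, and all 43 were among the 10527 genes bright enough to test. The cells were H3122, a human lung adenocarcinoma line that carries the EML4-ALK fusion, and its ALK inhibitor resistant derivatives H3122-LR2 (LR2) and H3122-LR3 (LR3). The arrays were LR2 with ceritinib, with crizotinib and untreated, LR3 with ceritinib and untreated, and parental H3122 with ceritinib, with crizotinib and untreated. Both ALK inhibitors were given at 1000 nM for 6 h, and all cells grew in RPMI with serum. Each condition had 1 array, so arrays of a line across agents stood in for replicates, and nothing in the sources used here said whether arrays came from separate cultures. Each resistant line is a single derivative, and whether the untreated resistant cells had been kept in drug beforehand was not given in the sources used here.

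DNA replication starts at origins that ORC, CDC6 and CDT1 load with the MCM2-7 helicase in G1. At S phase entry, kinases and the factors MCM10, CDC45 and GINS turn the helicase on, and polymerases, the clamp PCNA and its RFC loader copy the DNA. Most of these genes are transcribed by E2F factors once cyclin-dependent kinases release them from RB proteins. In cancer cells driven by a tyrosine kinase, growth factor signalling feeds into this step through the D cyclins.

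Because E2F is the shared regulator, the starts of the genes were searched for its binding words. Windows of 250 bases before to 50 after each gene start came from RefSeq (GRCh38.p14). Of the 43 members, 39 matched the table, with 50 windows in all, and POLD3, E2F8, MCM5 and MCM4 are named only. The E2F word TTCCCGC plus its variants TTCGCGC, plus TTGCCGC, plus TTGGCGC were searched on both strands, and overlapping matches on opposite strands were each counted. At least 1 of these 4 words lay in 36 of the 50 member windows (72.0%), against 4553 of 35116 windows of all genes (13.0%). The CCAAT word of NF-Y lay in 58.0% of member windows and 34.6% of all windows, and TTTGAA, the CHR word found at many mitotic genes, in 2.0% and 15.2%. Members with no E2F word in the window were CDC45, FEN1, MCM10, ORC6, POLD1 and SLBP. The windows below are those of the members with the largest called differences between LR2 and parental cells, with E2F words in capitals. They lie on the minus strand at chr3:48188368-48188667 (CDC25A), chr6:52284693-52284992 (MCM3), chr20:33686336-33686635 (E2F1) and chr3:186806433-186806732 (RFC4), and each is printed 5′ to 3′ along its gene.
CDC25A: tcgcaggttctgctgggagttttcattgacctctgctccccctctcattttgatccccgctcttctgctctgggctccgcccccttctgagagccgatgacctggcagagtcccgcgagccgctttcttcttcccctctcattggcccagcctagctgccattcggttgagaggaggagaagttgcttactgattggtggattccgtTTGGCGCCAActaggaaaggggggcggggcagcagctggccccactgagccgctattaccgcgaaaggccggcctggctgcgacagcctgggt
MCM3: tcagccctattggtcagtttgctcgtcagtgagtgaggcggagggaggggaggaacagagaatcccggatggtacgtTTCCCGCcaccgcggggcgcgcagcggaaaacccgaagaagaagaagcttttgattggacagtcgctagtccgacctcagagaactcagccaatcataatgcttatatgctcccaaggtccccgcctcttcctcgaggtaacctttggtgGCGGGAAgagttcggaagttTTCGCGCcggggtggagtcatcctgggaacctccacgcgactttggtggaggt
E2F1: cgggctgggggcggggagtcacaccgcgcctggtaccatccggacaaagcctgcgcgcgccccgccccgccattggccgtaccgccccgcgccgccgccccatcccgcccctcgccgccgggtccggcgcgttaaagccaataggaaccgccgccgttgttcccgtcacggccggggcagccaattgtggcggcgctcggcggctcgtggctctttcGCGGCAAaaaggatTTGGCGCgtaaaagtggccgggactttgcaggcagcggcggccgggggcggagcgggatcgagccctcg
RFC4: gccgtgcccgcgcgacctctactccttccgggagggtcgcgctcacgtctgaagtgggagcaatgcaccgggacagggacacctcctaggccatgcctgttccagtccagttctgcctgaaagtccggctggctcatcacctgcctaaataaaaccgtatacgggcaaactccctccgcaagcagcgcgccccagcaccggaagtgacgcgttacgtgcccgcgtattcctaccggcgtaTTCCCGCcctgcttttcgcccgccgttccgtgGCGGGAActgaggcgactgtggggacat
In CDC25A the 2 matches overlap, the forward one starting at base -43 from the gene start and the reverse one at -40. MCM3 held 3 matches, starting at -173, -23 and -3. E2F1, itself an E2F gene, held 2 at -33 and -19, and RFC4 held 2 at -10 and 23. A match is a description of letters in the window, and binding was not measured.

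Signals are on a log2 scale as deposited, so a difference of 1 is a 2-fold difference in signal. The median signal was 5.46 on the ceritinib-treated LR2 array and 5.31 to 5.36 on the other arrays. The members were abundant transcripts: their median level was 8.64, against 7.54 over all genes tested, and all 43 lay above the testing floor of 5.36 in every array. Member values ran between 5.90, for CDC25A in ceritinib-treated parental cells, and 12.04, for RRM2 in untreated LR3 cells. The median range of a member over the 8 arrays was 0.53, against 0.48 over all genes tested. The range passed 0.5 in 24 members and 1 in 2 members. Epithelial markers averaged 10.69 to 10.78 in LR2, 10.69 to 10.74 in LR3 and 10.70 to 10.72 in parental arrays. Of these 8 markers, 1 was called higher and 1 lower in LR2 than in parental cells, and LR3 gave the same counts. None of the 5 fibroblast or 4 leukocyte markers measured passed the testing floor. Of 4 endothelial markers, 3 passed it (CDH5, VWF and KDR, none above 6.52), with list means of 5.60 to 5.75 in LR2, 5.60 to 5.62 in LR3 and 5.63 to 5.73 in parental arrays. Of these 3, 1 was called lower in LR2 and 1 in LR3 than in parental cells, and the part of such signals in the results was not tested.

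In LR2 cells, 14 of the 43 genes were higher than in parental cells and none was lower. They included CDC25A, the phosphatase that activates CDK2 (0.83 ± 0.22, 1.77-fold), the helicase subunit MCM3 (0.66 ± 0.07, 1.58-fold), the transcription factor E2F1 and the clamp loader subunit RFC4 (0.56 ± 0.08 and 0.56 ± 0.07). The differences are log2 estimates, ± standard error, of a limma fit that was additive in line and agent, from 3 LR2 and 3 parental arrays with the spread shared over all 8 arrays. Called means an adjusted p under 0.05 (Benjamini-Hochberg, over the whole set of tested genes). The background of this comparison was wide: 12.8% of all genes tested were called higher and 9.68% lower, against 32.6% and 0.0% of the members. At an unadjusted p under 0.05, 20 of the 43 members were higher and 0 lower, while 36.5% of all genes passed it in either direction. The median member difference was 0.16, against 0.02 over all genes, and 39 of 43 members were above 0, against 55.7% of all genes. In a bulk extract a larger share of cells in S phase cannot be told apart from more of these transcripts per cell.

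Origin licensing and helicase genes changed in part. CDC6, which brings the helicase to origins, had 8.92, 8.49 and 9.09 in LR2 cells with ceritinib, with crizotinib and untreated, against 8.24, 8.24 and 8.84 in parental cells in the same order. Each LR2 value was above the parental value with the same agent, but the groups overlapped (difference 0.39 ± 0.10, adjusted p = 0.0238). MCM3 had 10.38, 10.27 and 10.34 in LR2 cells, against 9.72, 9.71 and 9.59 in parental cells. The MCM3 groups stood clearly apart, with little spread between agents (adjusted p = 0.000748). MCM5, another helicase subunit, had 8.78, 8.79 and 8.65 in LR2 cells, against 8.45, 8.56 and 8.32 in parental cells (0.30 ± 0.07, adjusted p = 0.0171). The other helicase subunits were not called: MCM2 differed by 0.13 ± 0.07 (adjusted p = 0.193), MCM7 by 0.11 ± 0.08 (adjusted p = 0.344), MCM4 by 0.06 ± 0.08 and MCM6 by -0.17 ± 0.09. MCM2 had 9.47, 9.46 and 9.25 in LR2 cells, against 9.30, 9.33 and 9.16 in parental cells. MCM7 had 11.55, 11.30 and 11.50 in LR2 cells, against 11.31, 11.32 and 11.38 in parental cells. Both genes overlapped between the lines. The MCM2-7 subunits act as 1 ring, yet the log2 differences of its members ran between -0.17 and 0.66. Of the other licensing factors, ORC1, ORC6 and CDT1 differed by 0.28, 0.13 and 0.17 and were not called. CDT1 had 7.48, 7.53 and 7.39 in LR2 cells, against 7.47, 7.51 and 6.90 in parental cells, where the untreated array alone was low.

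Origin firing and fork genes were called one by one. CDC45, the helicase activator, had 9.32, 9.16 and 9.37 in LR2 cells, against 8.77, 8.89 and 8.95 in parental cells, with no overlap (0.41 ± 0.08, adjusted p = 0.00911). MCM10, which acts with it when origins fire, had 7.13, 6.53 and 7.14 in LR2 cells, against 6.31, 6.36 and 6.86 in parental cells, and these groups overlapped (0.42 ± 0.12, adjusted p = 0.0408). The 3 GINS genes and the kinase gene CDC7 were not called, with differences of 0.01 to 0.24. RFC4 had 9.66, 9.58 and 9.41 in LR2 cells, against 9.08, 9.08 and 8.81 in parental cells, with no overlap (adjusted p = 0.00174). The other clamp loader genes, RFC2, RFC3 and RFC5, differed by 0.25, 0.16 and 0.10, none of them called. PCNA, the sliding clamp itself, was at 11.59, 11.45 and 11.60 in LR2 cells and 11.53, 11.49 and 11.53 in parental cells (0.03 ± 0.07, adjusted p = 0.797). The 95% interval of the PCNA difference ran between -0.13 and 0.19, although its second probe set differed by 0.72. Among 7 polymerase and primase genes, POLD3, an accessory subunit of polymerase delta, was called (0.35 ± 0.07, adjusted p = 0.00889), with 7.48, 7.41 and 7.32 in LR2 cells against 7.07, 7.10 and 6.99 in parental cells. Both Okazaki fragment genes were called: FEN1, the flap nuclease, at 0.35 ± 0.10 (adjusted p = 0.045) and LIG1, the ligase that seals the fragments, at 0.28 ± 0.08 (adjusted p = 0.0339). FEN1 had 10.21, 9.85 and 10.21 in LR2 cells, against 9.54, 9.67 and 10.01 in parental cells, where the untreated value was the high one and overlapped LR2. CHAF1A, a histone chaperone subunit, was called at 0.28 ± 0.08 (adjusted p = 0.0385), and CHAF1B, UHRF1 and SLBP were not.

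The regulators of S phase entry had 4 of 5 members called and the highest median difference of the 9 role groups, 0.49. CDC25A had 7.46, 6.57 and 7.61 in LR2 cells, against 5.90, 6.23 and 7.03 in parental cells. Its LR2 value was the higher in each of the 3 pairs, by 1.56 with ceritinib, 0.34 with crizotinib and 0.58 untreated, and the crizotinib-treated LR2 value lay below untreated parental cells (adjusted p = 0.0305). E2F1 had 7.38, 7.33 and 7.12 in LR2 cells, against 6.96, 6.71 and 6.48 in parental cells, with no overlap (adjusted p = 0.00238). E2F2, another activating E2F gene, rose by 0.35 ± 0.07 (adjusted p = 0.0104). DTL, the adaptor that directs CDT1 to degradation in S phase, had 8.03, 7.44 and 7.82 in LR2 cells, against 7.32, 7.14 and 7.37 in parental cells, with no overlap (0.49 ± 0.09, adjusted p = 0.00796). E2F8, a repressing E2F gene, differed by 0.23 ± 0.10 and was not called (adjusted p = 0.134), with 8.62, 8.96 and 8.32 in LR2 cells against 8.59, 8.58 and 8.05 in parental cells. None of the 4 nucleotide supply genes was called: the ribonucleotide reductase genes RRM2 and RRM1 differed by 0.04 ± 0.07 and 0.12 ± 0.07, TK1 by 0.04 ± 0.07 and TYMS by -0.12 ± 0.07.

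Without any overlap between the arrays of the 2 lines, 13 members were higher in LR2 (18.1% of all genes) and 0 lower (13.8% of all genes). Member medians of single pairs were 0.21 with ceritinib, 0.08 with crizotinib and 0.18 untreated, against 0.09, -0.02 and 0.01 over all genes. The LR2 ceritinib array was the one with the raised array median, and without it 7 members were called higher. Leaving out each array in turn gave 5 to 11 members higher, and 0 lower each time: 5 without the untreated LR2 array, and 8 without either crizotinib array or the untreated parental array. MCM3, RFC4, POLD3, E2F1 and DTL were called whichever array was left out, and the 9 other calls were lost in at least 1 of these fits. MCM10, FEN1 and CHAF1A were lost in all 8, and the CDC25A difference was 0.46 without the ceritinib-treated parental array. Under quantile normalization 45.5% of the genes called in this comparison were higher, against 57.0% on the deposited scale, and 13 members were higher and 0 lower.

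**Figure D1:**
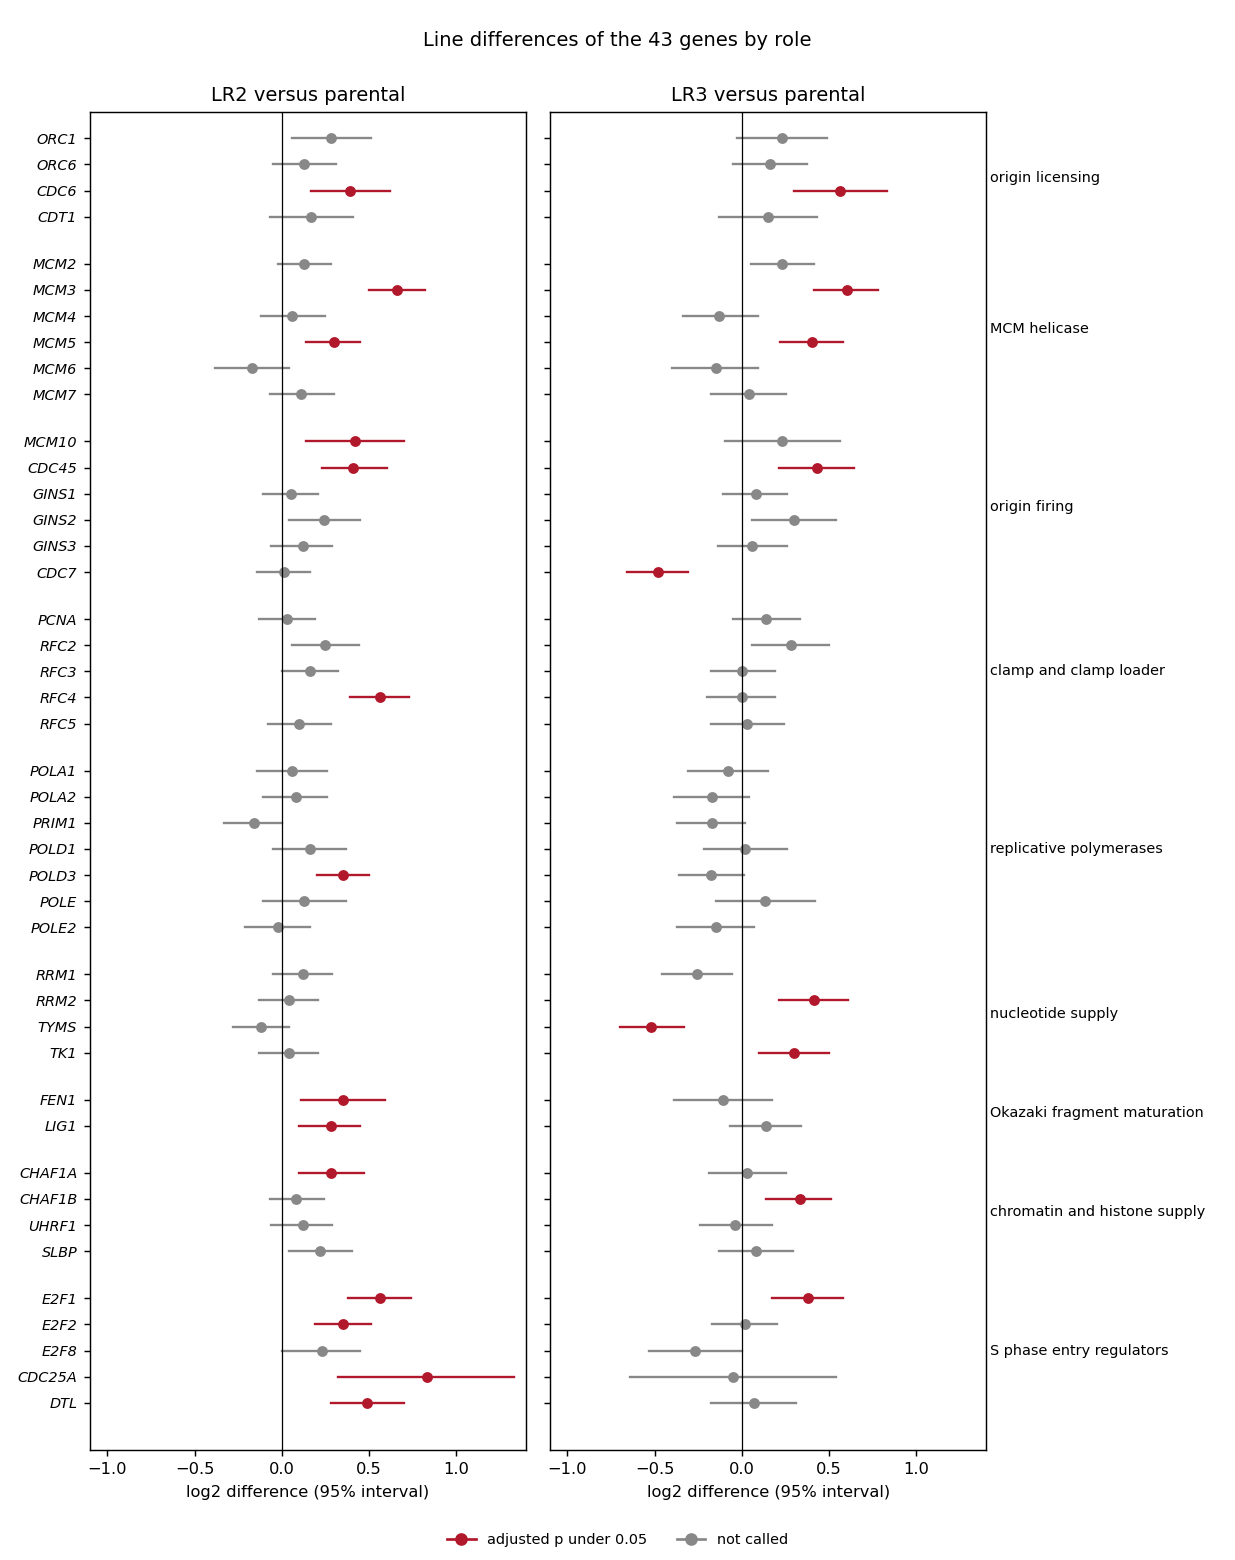
Log2 differences (x axis, with 95% intervals) of the 43 genes, grouped by role down the page, for LR2 (left) and LR3 (right) against parental cells; red marks an adjusted p under 0.05. In LR2, 14 genes are red and all lie right of 0, and in LR3 8 lie right of 0 and 2 left of it.

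In LR3 cells the 43 genes split. Against parental cells, 8 were higher and 2 lower (18.6% and 4.65% of the members). Of all genes tested, 9.53% were called higher and 12.1% lower. In either direction 21.6% of all genes were called, and the share of members was near that. MCM3 (0.60 ± 0.08), CDC6 (0.56 ± 0.11), CDC45 (0.43 ± 0.09) and RRM2 (0.41 ± 0.09) were the largest rises, and TYMS, thymidylate synthase, fell by 0.52 ± 0.08 and CDC7 by 0.48 ± 0.08. The member median was 0.06, against 0.01 over all genes, and 28 of 43 members were above 0, against 51.3% of all genes. LR3 had 2 arrays and no crizotinib array, so these estimates also drew on the agent differences seen in the other lines.

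Among licensing and helicase genes, MCM3 had 10.31 with ceritinib and 10.24 untreated in LR3 cells, against 9.72, 9.71 and 9.59 with ceritinib, with crizotinib and untreated in parental cells (adjusted p = 0.00263). CDC6 had 8.99 and 9.29 in LR3 cells, against 8.24, 8.24 and 8.84 in parental cells (adjusted p = 0.0122). MCM5 had 8.90 and 8.71 in LR3 cells, against 8.45, 8.56 and 8.32 in parental cells (0.40 ± 0.08, adjusted p = 0.0107). The arrays of the 2 lines did not overlap for any of these 3 genes. MCM2 had 9.53 and 9.39 in LR3 cells, against 9.30, 9.33 and 9.16 in parental cells, and was not called (0.23 ± 0.08, adjusted p = 0.0677). MCM7 had 11.49 and 11.34 in LR3 cells, against 11.31, 11.32 and 11.38 in parental cells (0.04 ± 0.09, adjusted p = 0.813). CDT1, the licensing factor that DTL targets, had 7.48 and 7.26 in LR3 cells, against 7.47, 7.51 and 6.90 in parental cells (0.15 ± 0.12, adjusted p = 0.432). MCM2 kept its groups apart, while MCM7 and CDT1 overlapped.

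CDC45 had 9.34 and 9.31 in LR3 cells, against 8.77, 8.89 and 8.95 in parental cells (adjusted p = 0.0163). CDC7, the kinase that phosphorylates the helicase at origins, had 6.93 and 6.73 in LR3 cells, against 7.36, 7.03 and 7.27 in parental cells (adjusted p = 0.00494). The CDC7 values fell clear of the parental ones on the low side and the CDC45 values on the high side, so 2 genes of origin firing were called in opposite directions. PCNA had 11.62 and 11.75 in LR3 cells, against 11.53, 11.49 and 11.53 in parental cells (0.14 ± 0.08, adjusted p = 0.268). No clamp loader, polymerase or Okazaki fragment gene was called in LR3.

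Of the 4 nucleotide supply genes, 3 were called, in both directions, where 21.6% of all genes were called. RRM2, the small subunit of ribonucleotide reductase, had 11.89 and 12.04 in LR3 cells, against 11.43, 11.46 and 11.64 in parental cells (adjusted p = 0.0145). TYMS had 10.63 and 10.60 in LR3 cells, against 11.20, 11.16 and 11.04 in parental cells (adjusted p = 0.00464). TYMS makes dTMP by methylating dUMP and TK1, thymidine kinase, makes it from thymidine. TK1 was 0.30 ± 0.09 higher (adjusted p = 0.0433). The TK1 call was kept in 5 of 17 alternatives and the TYMS call in 14 of 16. RRM1, the large subunit of the reductase, differed by -0.26 ± 0.09 and was not called (adjusted p = 0.0704). Among regulators E2F1 alone was called, with 7.19 and 6.97 in LR3 cells against 6.96, 6.71 and 6.48 in parental cells (0.38 ± 0.09, adjusted p = 0.0234). CDC25A had 6.50 and 6.58 in LR3 cells, inside the parental range of 5.90 to 7.03 (-0.05 ± 0.26, adjusted p = 0.919). Without the ceritinib-treated parental array, the lowest of the 3, CDC25A was called lower in LR3 (-0.51, adjusted p = 0.0132), and over all alternatives its difference ran between -0.51 and 0.23. CHAF1B, a histone chaperone subunit, rose by 0.33 ± 0.08 (adjusted p = 0.0243).

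Without overlap between LR3 and parental arrays, 14 members were higher (24.7% of all genes) and 5 lower (23.1% of all genes). Without the ceritinib-treated LR3 array 1 member was called higher and 1 lower, and without the untreated LR3 array again 1 and 1. Without the untreated parental array 3 were called higher. MCM3 was the 1 member called whichever array was left out, and the 9 other calls were each lost in at least 1 fit. From the 2 agent-matched pairs alone, 0 genes were called. With each array centred on its median, 55.1% of the genes called were higher, against 44.1% on the deposited scale, and 11 members were higher and 2 lower. CDC6, MCM3, MCM5, CDC45 and E2F1 were called higher in LR2 and in LR3, but both comparisons used the same parental arrays.

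**Figure D2:**
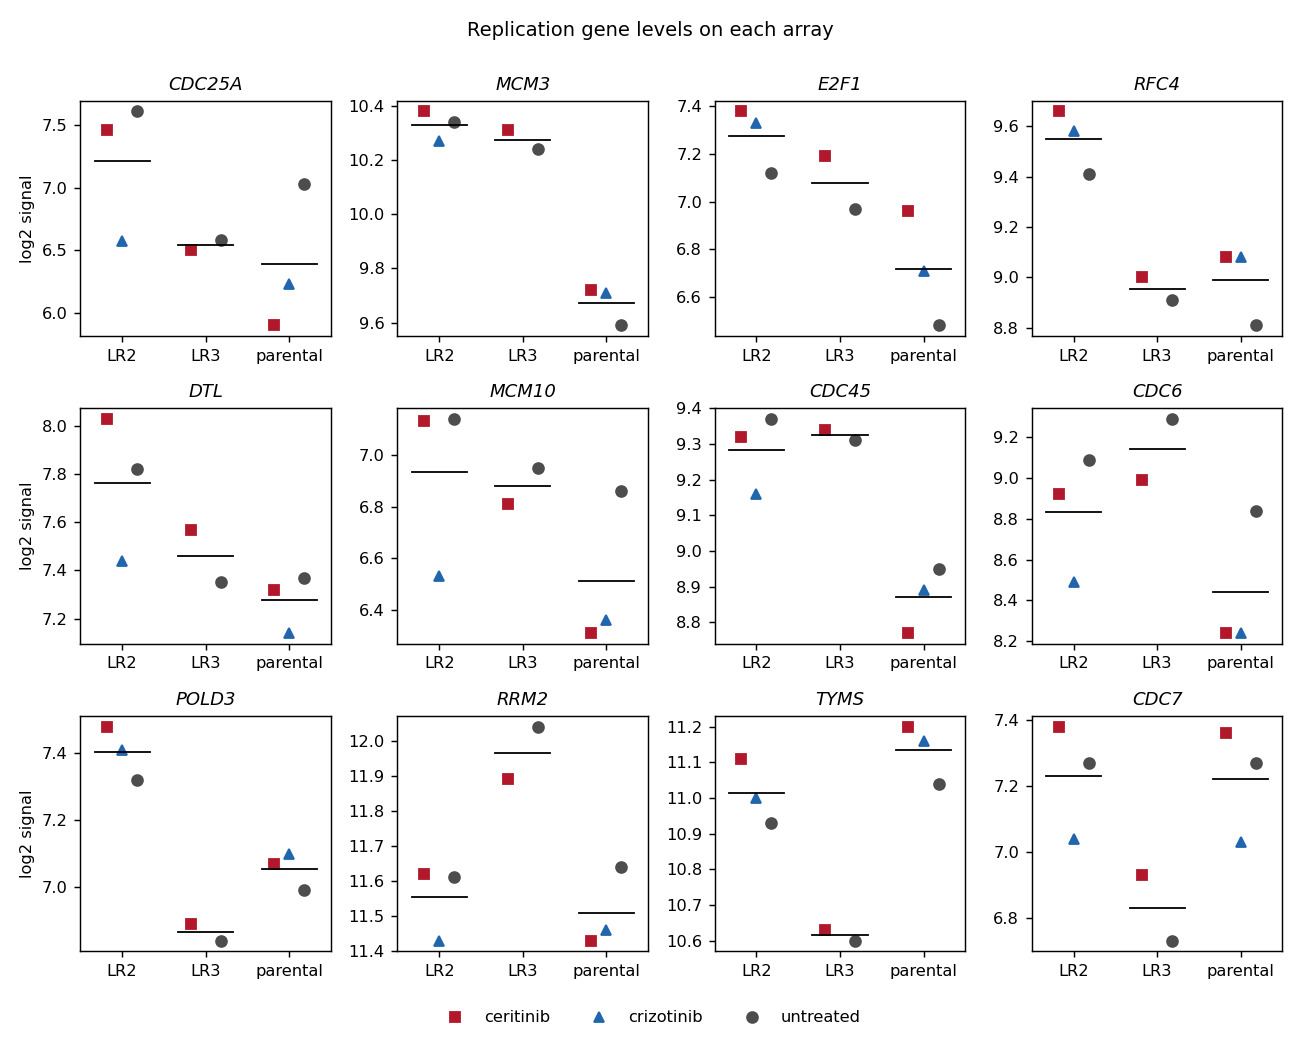
Log2 signal (y axis, a scale of its own in each panel) of 12 of the genes on each of the 8 arrays, by line; squares are ceritinib, triangles crizotinib and circles untreated, and the bar is the mean of a line. MCM3 and CDC45 are high in LR2 and LR3, RFC4 and POLD3 are high in LR2, and in LR3 RRM2 is high and TYMS and CDC7 are low.

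The 2 resistant lines were then set against each other. In LR3, 10 members were lower than in LR2 and 1 higher, against 12.3% and 7.29% of all genes tested (19.6% in either direction), and the member median was -0.13, against -0.02. Of the 5 regulators of S phase entry, 4 were lower: CDC25A by -0.87 ± 0.26 (adjusted p = 0.0482), E2F8 by -0.49 ± 0.11 (adjusted p = 0.0203), DTL by -0.42 ± 0.11 (adjusted p = 0.029) and E2F2 by -0.33 ± 0.08 (adjusted p = 0.0254). CDC25A had 6.50 and 6.58 in LR3 cells, against 7.46, 6.57 and 7.61 in LR2 cells, where the crizotinib-treated array alone reached down to the LR3 values. E2F8 had 8.07 and 7.96 in LR3 cells, against 8.62, 8.96 and 8.32 in LR2 cells. DTL had 7.57 and 7.35 in LR3 cells, against 8.03, 7.44 and 7.82 in LR2 cells. The E2F8 groups did not overlap and the DTL groups did. E2F1 differed by -0.18 ± 0.09 and was not called (adjusted p = 0.198).

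At the fork, RFC4 had 9.0 and 8.91 in LR3 cells, against 9.66, 9.58 and 9.41 in LR2 cells (-0.56 ± 0.08, adjusted p = 0.0035). POLD3 had 6.89 and 6.84 in LR3 cells, against 7.48, 7.41 and 7.32 in LR2 cells (-0.52 ± 0.08, adjusted p = 0.00357). Both were well separated between the lines. FEN1 had 9.55 and 9.86 in LR3 cells, against 10.21, 9.85 and 10.21 in LR2 cells, with the LR2 crizotinib value overlapping (-0.46 ± 0.12, adjusted p = 0.0321). CDC7 had 6.93 and 6.73 in LR3 cells, against 7.38, 7.04 and 7.27 in LR2 cells (-0.50 ± 0.08, adjusted p = 0.00436). None of the 6 helicase subunits was called between these lines. MCM3 differed by -0.06 ± 0.08, with a 95% interval between -0.25 and 0.13. MCM4 had 10.30 and 10.47 in LR3 cells, against 10.61, 10.60 and 10.50 in LR2 cells. These did not overlap, but the difference was not called (-0.19 ± 0.09, adjusted p = 0.191).

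Nucleotide supply genes went both ways between the resistant lines. TYMS had 10.63 and 10.60 in LR3 cells, against 11.11, 11.00 and 10.93 in LR2 cells (-0.40 ± 0.08, adjusted p = 0.0124). RRM1 fell by 0.38 ± 0.09 (adjusted p = 0.0193), while its partner RRM2 had 11.89 and 12.04 in LR3 cells, against 11.62, 11.43 and 11.61 in LR2 cells (0.37 ± 0.09, adjusted p = 0.0222). The 2 subunits of 1 enzyme were thus called in opposite directions. Without overlap, 15 members were lower in LR3 (24.7% of all genes) and 4 higher (20.9% of all genes). None of the 11 calls held in every fit that left out 1 array. Without the ceritinib-treated LR3 array 1 member was called lower, without the untreated LR3 array 4, without the ceritinib-treated LR2 array 3, without the untreated LR2 array 4, and without either crizotinib array 6. RRM2 was not called without either LR3 array, either crizotinib array or the untreated LR2 array, and 1 member was lower in the matched pairs alone. The share of called genes that were higher was 37.2% on the deposited scale, 47.5% after quantile normalization and 53.9% after median centring, with 9 members lower under both.

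Across the 3 line comparisons 21 members were called at least once and 22 never. The 22 were CDT1, GINS1, GINS2, GINS3, MCM2, MCM4, MCM6, MCM7, ORC1, ORC6, PCNA, POLA1, POLA2, POLD1, POLE, POLE2, PRIM1, RFC2, RFC3, RFC5, SLBP and UHRF1. Half-widths of the 95% intervals ran between 0.15 and 0.50 in LR2 against parental cells. A difference with an interval clear of 0 could still go uncalled after adjustment, as for ORC1 (0.28, 95% interval 0.06 to 0.51). Differences of such size could thus be missed with this number of arrays. Many members had several probe sets, 31 of 43. RFC4 had 2 further probe sets that did not share its rise in LR2, at -0.01 and -0.05, with mean signals of 2.43 and 2.92 that lie below the testing floor. When all probe sets of a gene were averaged, the RFC4 difference was 0.17 (adjusted p = 0.138) and that of E2F2 0.09. CDC6 had 1 other probe set, with a mean signal of 8.49. Against parental cells it differed by 0.26 in LR2 and 0.30 in LR3 and was not called in either. All 4 MCM3 probe sets were higher in LR2 (0.36 to 0.66), and all 3 of CDC25A (0.43 to 0.83). The further CDC25A probe sets had mean signals of 5.45 and 5.17, near or below the testing floor of 5.36.

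**Figure D3:**
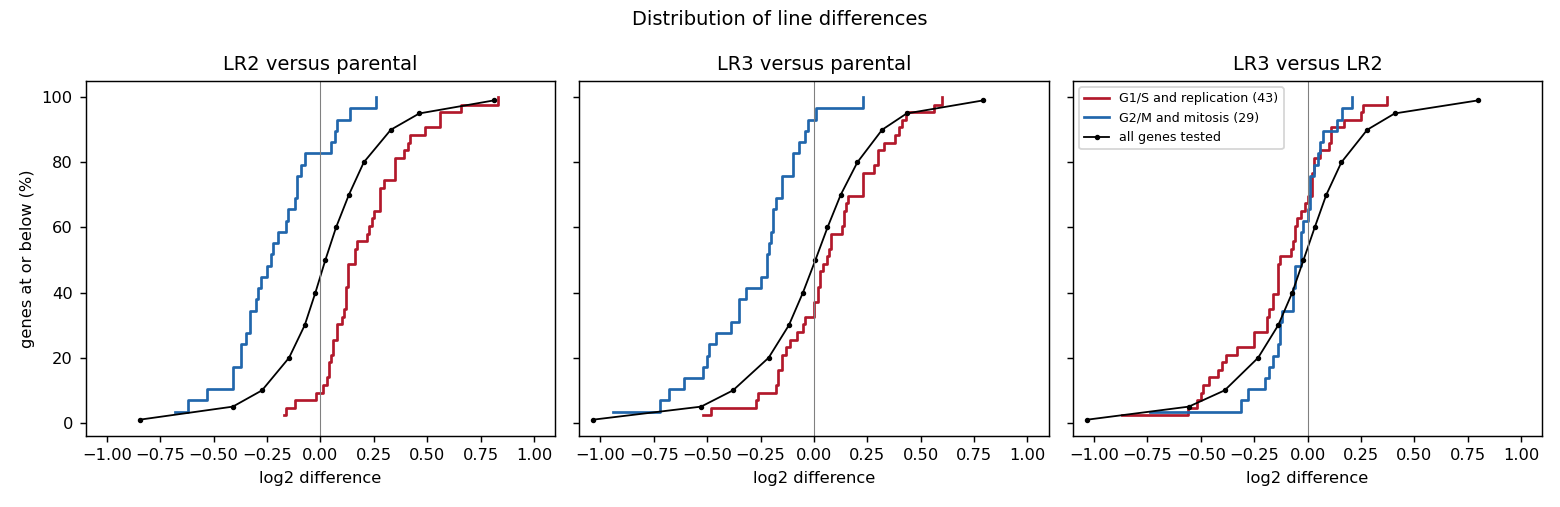
Cumulative share of genes (y axis, percent) at or below each log2 difference (x axis) for the 43 genes (red), 29 G2/M and mitosis genes (blue) and all 10527 genes tested (black, at percentiles), in the 3 line comparisons. The red line lies right of the black one in LR2 against parental cells and left of it over most of LR3 against LR2, and the blue line lies left of it in both comparisons with parental cells.

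G2/M and mitosis genes, which act after replication, were counted beside them. Of 29 G2/M genes tested, 13 were lower in LR2 than in parental cells and 0 higher (median -0.23), where 9.68% of all genes were called lower, led by DLGAP5 (-0.68), CENPA (-0.62) and ANLN (-0.53). In LR3, 10 of 29 were lower than in parental cells and 0 higher (median -0.22), where 12.1% of all genes were called lower. The G2/M medians of single pairs depended on the agent. For LR2 minus parental they were -0.33 with ceritinib, -0.22 with crizotinib and -0.14 untreated. For LR3 minus parental they were -0.35 with ceritinib and -0.09 untreated. These comparisons share the parental arrays, and the part that cell cycle distribution plays in either gene group was not tested.

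Upstream of E2F, 2 of 8 tested G1/S cyclin and kinase genes were higher in LR2 than in parental cells, CDK6 (0.74 ± 0.08, adjusted p = 0.000692) and CCNE2 (0.71 ± 0.10, adjusted p = 0.00312), and 0 lower. CDK6 partners the D cyclins and CCNE2 encodes a cyclin E, which activates CDK2. Of 4 tested CDK inhibitor genes, 2 were lower in LR2, CDKN1C (-0.84 ± 0.08, adjusted p = 0.000574) and CDKN1B (-0.46 ± 0.13, adjusted p = 0.0422). In LR3, CCND3 was 0.69 ± 0.12 and CDK6 0.40 ± 0.09 higher than in parental cells, CDKN1C was lower (-1.02 ± 0.10) and CDKN1A, the p21 gene, higher (0.85 ± 0.11, adjusted p = 0.00223). Between the resistant lines CDKN1A was 1.11 ± 0.11 higher (adjusted p = 0.00073) and CCNE2 lower (-0.62 ± 0.12, adjusted p = 0.0107) in LR3. Of 10 RB and other E2F family genes, 2 were higher and 1 lower in LR2, E2F3 most (0.76 ± 0.13, adjusted p = 0.00526). LR3 gave the same counts, with E2F3 at 0.61 ± 0.15 and E2F5 at -0.63 ± 0.16. Of 30 further replication factors, 6 were higher and 0 lower in LR2, the largest being GMNN (0.51), the CDT1 inhibitor geminin, ORC2 (0.46) and TIPIN (0.42). In LR3, 3 of the 30 were higher and 2 lower, among them DNMT1, the maintenance methyltransferase (-0.43 ± 0.08, adjusted p = 0.00877). All these counts stand beside 12.8% of all genes called higher and 9.68% lower in LR2, and 9.53% higher and 12.1% lower in LR3.

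Neighbouring genes were read as a description of the genomic surroundings. The 9 tested neighbours of TYMS on chromosome 18 had a median difference of -0.46 in LR3 against parental cells, with 6 called lower and 0 higher, beside -0.52 for TYMS. Against LR2 cells the same neighbours had a median of -0.46, beside -0.40 for TYMS. CDC25A (chromosome 3) had neighbours with a median of -0.38 in LR3 against LR2, 5 of 10 called lower, and POLD3 (chromosome 11) neighbours with -0.32. The 10 neighbours of MCM3 (chromosome 6) had a median of 0.29 in LR2 against parental cells, 5 called higher and 1 lower, and those of RFC4 (chromosome 3) 0.22. In LR3 against parental cells the MCM3 neighbours had a median of 0.07, beside 0.60 for MCM3. For E2F1, DTL and FEN1 the neighbours' medians in LR2 against parental cells were -0.06, -0.05 and -0.09. For POLD3 and CDC25A, also called there, they were -0.05 and 0.08. Copy number was not measured.

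The inhibitors were compared with untreated cells over 6 h. With crizotinib and ceritinib taken as 1 condition in each line, limma called 0 genes in parental, LR2 or LR3 cells (0.0% of all genes). Members at an unadjusted p under 0.05 numbered 8 of 43 in parental cells, 1 in LR2 and 1 in LR3. Of all genes, 1849 (17.6%), 1015 (9.64%) and 499 (4.74%) passed it, so the share over all genes fell in the same order. The 8 of 43 is near the share of all genes in parental cells. The model had 2 residual degrees of freedom, and the narrowest member interval in parental cells was ± 0.24. The test of the difference in response called 0 genes for LR2 minus parental and 0 for LR3 minus parental, with 1 and 0 members at an unadjusted p under 0.05, beside 2.38% and 4.8% of all genes. The 1 of 43 (CDT1, LR2 minus parental response -0.48) is near the share of all genes.

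Some members are described by the difference of single arrays, 1 inhibitor array minus 1 untreated array, without a test. CDC25A differed from untreated cells by -0.15 with ceritinib and -1.04 with crizotinib in LR2, by -0.08 with ceritinib in LR3, and by -1.13 with ceritinib and -0.80 with crizotinib in parental cells. In parental cells both inhibitor arrays were thus low, and in LR2 only the crizotinib array was. CDC6 differed by -0.17 and -0.60 in LR2, by -0.30 in LR3 and by -0.60 and -0.60 in parental cells, and MCM10 by -0.01 and -0.61, by -0.14, and by -0.55 and -0.50 in the same order. FEN1 differed by 0.00 and -0.36, by -0.31, and by -0.47 and -0.34. All 4 genes had their smallest difference on a ceritinib array of a resistant line. E2F8 went the other way, by 0.30 and 0.64 in LR2, by 0.11 in LR3 and by 0.54 and 0.53 in parental cells, as did E2F1, by 0.26 and 0.21, by 0.22, and by 0.48 and 0.23. CDT1 differed by 0.57 and 0.61 in parental cells and by 0.09 to 0.22 in the resistant lines.

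In all 5 pairs of inhibitor and untreated arrays, 11 of the 43 members were higher, near the share of all genes (22.1%). A further 4 were lower, also near the share of all genes (8.08%). The 11 were CDT1, MCM2, MCM5, RFC4, PRIM1, POLD1, POLD3, TYMS, CHAF1B, E2F1 and E2F8, and the 4 were CDC6, MCM10, GINS1 and CDC25A. The pairs share untreated arrays within a line, so they are not independent. In LR2 cells with ceritinib, the median over all genes was itself 0.10 above untreated, beside 0.12 for the members.

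Each inhibitor was also tested against untreated cells across lines, a comparison chosen after seeing the data. With crizotinib (2 arrays), CDC6 was lower (-0.59 ± 0.11, adjusted p = 0.0401) and E2F8 higher (0.53 ± 0.11, adjusted p = 0.0469), where 3.76% of all genes were called, 2.82% higher and 0.94% lower. MCM10 (-0.53 ± 0.14, adjusted p = 0.0731) and CDC25A (-0.83 ± 0.26, adjusted p = 0.104) were not called. Both calls were lost without the crizotinib array of LR2 or parental cells (adjusted p up to 0.365 for CDC6 and 0.38 for E2F8), without the untreated array of either line, without the ceritinib-treated LR2 array, without the gene floor and with averaged probe sets. E2F8 was also not called after quantile normalization or median centring. Without the ceritinib-treated parental array, 5 members were called lower, among them CDC25A (-0.92, adjusted p = 0.000271). Ceritinib called 0 genes against untreated cells across lines in limma, with 2017 genes (19.2%) and 10 of 43 members at an unadjusted p under 0.05. The largest member estimates with ceritinib were CDC25A at -0.45 ± 0.22, CDC6 at -0.36 ± 0.10, and PRIM1, E2F1 and E2F8 at 0.32.

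Ceritinib and crizotinib, both ALK inhibitors and given at the same dose and time, were compared as 1 pair across lines. Limma called 0 genes (0.0% of all genes), with 637 genes (6.05%) and 2 of 43 members at an unadjusted p under 0.05. The members were CDC7 (0.35, 95% interval 0.17 to 0.53) and DTL (0.41, 95% interval 0.16 to 0.65), both with ceritinib above crizotinib and with adjusted p of 0.712 or more. CDC25A differed by 0.37, with a 95% interval between -0.22 and 0.96 that covers 0. The 2 lines gave unlike values. In LR2 cells, ceritinib minus crizotinib was 0.89 for CDC25A, 0.60 for MCM10, 0.59 for DTL and 0.43 for CDC6. In parental cells it was -0.33, -0.05, 0.18 and 0.00 for the same genes. With 1 array per line and inhibitor that contrast between lines was not tested. Without the ceritinib-treated parental array, 401 genes were called, and 3 members were higher with ceritinib, CDC25A at 0.83 (adjusted p = 0.00409). LR2 was then the only line with both inhibitors, and its ceritinib array had the raised array median. In the LR2 pair the median over all genes was 0.09, and 70.4% of all genes were above 0.

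**Figure D4:**
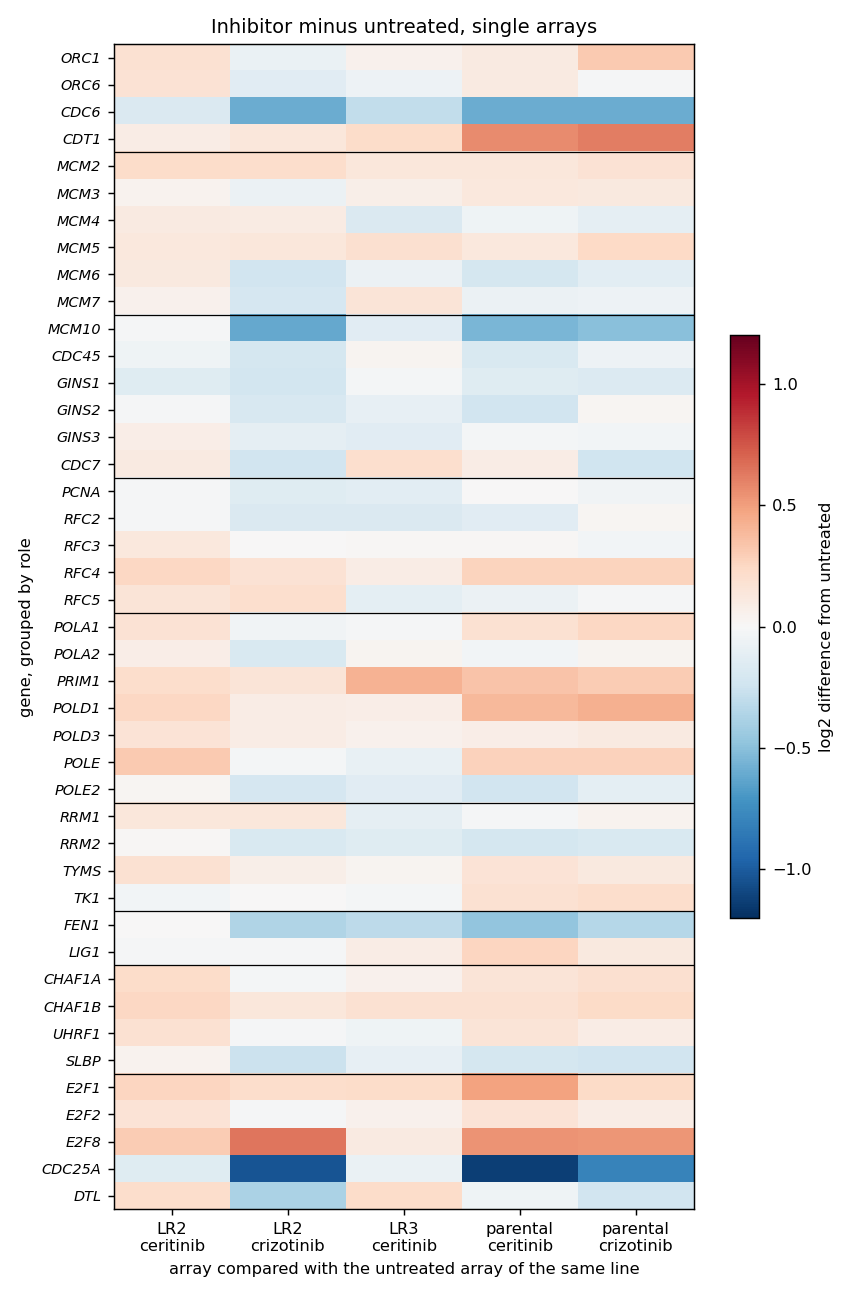
Log2 difference (colour) between each inhibitor array and the untreated array of its line, for the 43 genes by role. CDC6, MCM10 and CDC25A are blue in LR2 with crizotinib and in parental cells with either inhibitor, and paler in LR2 and LR3 with ceritinib, and E2F8 and CDT1 are red in all columns, in varying depth.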

How the data were processed

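RNA from 3 cell lines was measured on 8 single-colour arrays, 1 per condition. Deposited log2 signals per probe set were made with RMA, per the submitters' processing notes, and its software was not given in the sources used here. RNA was isolated with an RNeasy kit and labelled with biotin, per the labels' protocols. Of 49395 probe sets, 102 were controls and 44988 others had 1 gene symbol (1832 had several, 2473 none). A gene was tested when its brightest probe set exceeded 5.36, the 50th percentile of all values, in at least 2 arrays. limma 3.58.1 (R 4.3.3) fitted an additive model of line and agent (3 residual and 4.99 prior degrees of freedom), and a model of 6 means, line by inhibitor or none (2 and 3.43). P-values were Benjamini-Hochberg adjusted over 10527 genes, and called genes had an adjusted p under 0.05. They measure only the spread between these arrays, which may be technical. In the additive model that spread also holds any response to an agent that differs between lines. In the model of 6 means it also holds any difference between crizotinib and ceritinib within a line. The fits were tested on simulated data.

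The members, lists and tests were chosen with earlier results of these data known. Values are given on every array for up to 8 called members of largest difference per comparison and for MCM2, MCM3, MCM7, PCNA, CDC6, CDT1, E2F1, RRM2, TYMS and CDC25A, and other lists name up to 3 called genes. Alternatives were the gene floor, quantile normalization, median centring, averaged probe sets, and probe sets with no a, s or x suffix in their names. Further ones were an intensity trend, models without agent or line, matched arrays alone, and leaving out each array. Precision is limited by how few arrays there are.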

Additional observations from a re-analysis of the deposited data

Results flagged for a closer look

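The difference of each resistant line from parental cells was itself compared between LR2 and LR3, and 11 of the 43 genes passed that test, where 19.6% of all genes did. None of the 11 calls held in every fit that left out 1 array. Because the parental arrays cancel in it, this is the LR3 minus LR2 difference of the report. CDC25A (-0.87), E2F8 (-0.49), DTL (-0.42) and E2F2 (-0.33), all regulators of S phase entry, were lower in LR3. RFC4 (-0.56), POLD3 (-0.52), FEN1 (-0.46) and CDC7 (-0.50), which act at the fork or at origins, were lower too. Of the nucleotide supply genes, TYMS (-0.40) and RRM1 (-0.38) were lower in LR3 and RRM2 (0.37) was higher. For TYMS, CDC25A and POLD3 the neighbouring genes had medians of -0.46, -0.38 and -0.32, and the part of the genomic region in these differences was not tested.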

How the results depend on the processing

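No named gene changed sign while called in any alternative run, and no member was called lower in LR2 than in parental cells in any of them. Leaving out each array in turn gave 1146 to 2116 genes called for LR2 against parental cells (2369 with all arrays) and 5 to 11 members higher. For LR3 against parental cells it gave 632 to 2311 genes (2274), 1 to 8 members higher and 1 to 3 lower. For LR3 against LR2 it gave 710 to 2630 genes (2064), 0 to 1 members higher and 1 to 10 lower. A line left with 1 array was assumed to vary like the others. For ceritinib against crizotinib the range was 0 to 401 genes and 0 to 3 members higher. Against untreated cells across lines it was 0 to 3 genes for ceritinib, and 0 to 1529 genes, 0 to 1 members higher and 0 to 5 lower for crizotinib.

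Without probe sets whose names carry an a, s or x suffix 10 members were left to test. Then 647 genes and 3 members higher were called in LR2, 450 genes, 2 members higher and 0 lower in LR3, and 459 genes, 0 members higher and 1 lower in LR3 against LR2. It called 3 genes for ceritinib, and 92 genes and 0 members higher for crizotinib, against untreated cells. Without an agent term, LR2 gave 1478 genes and 6 members higher, LR3 4 members higher, and LR3 against LR2 5 members lower. Matched arrays alone called 0 genes, 0 members higher and 0 lower in LR3 against parental cells, and 544 genes, 0 members higher and 1 lower in LR3 against LR2. Members higher in LR3 than in LR2 were 2 after quantile normalization, 3 after median centring, 2 with averaged probe sets and 2 with an intensity trend. For crizotinib against untreated cells, no filter gave 151 genes, 0 members higher and 0 lower, quantile normalization 258 genes and 0 higher, median centring 0 higher, and a trend 797 genes. The trend called 61 genes for ceritinib. Beyond fewer arrays or genes, the cause was not tested. The inhibitor responses per line called 0 genes under each alternative run. The labels carry no replicate numbers, so no fit had a replicate block, and lines were matched by agent through the agent term and in the matched arrays alone. All 43 genes lay above the floor for signal, and precision is limited by how few arrays there are.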

Other observations

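Of 10 tested genes of replication stress and repair, 4 were higher in LR2 than in parental cells and 0 lower, where 12.8% of all genes were called higher and 9.68% lower. All 10 were above 0 (median 0.25), as were 55.7% of all genes. BARD1, the partner of BRCA1, was 0.58 ± 0.08 higher, the checkpoint kinase gene ATR 0.55 ± 0.10 and the nuclease gene EXO1 0.53 ± 0.08. In LR3, EXO1 was higher (0.41 ± 0.09) and the checkpoint kinase gene CHEK1 lower (-0.30 ± 0.09) than in parental cells. Between the resistant lines, BARD1 (-0.67 ± 0.10), CHEK1 (-0.45 ± 0.09) and BLM, a helicase gene (-0.37 ± 0.09), were lower in LR3.

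Of 14 further genes of nucleotide synthesis, 3 were higher and 2 lower in LR2 than in parental cells, where 12.8% of all genes were called higher and 9.68% lower. MTHFD1, an enzyme of folate metabolism that supplies purine and thymidylate synthesis, was lower in LR2 (-0.87 ± 0.07, adjusted p = 0.000309) and in LR3 (-0.99 ± 0.09, adjusted p = 0.000408), 2 comparisons that share the parental arrays. DCTPP1, which breaks down dCTP, was 0.48 ± 0.08 higher in LR2 and 0.40 ± 0.09 higher in LR3. IMPDH2, of guanine nucleotide synthesis, was lower in LR3 than in parental cells (-0.60 ± 0.08) and than in LR2 (-0.54 ± 0.08).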
